A study of Mus musculus with 21 samples.

Results

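Of 63953 accessible regions tested in muscle fibre nuclei of mouse quadriceps, 4554 (7.12%) lay far from any protein-coding gene start and lost accessibility immediately after exhaustive running in trained mice, without being listed in any of the other comparisons. They were chosen by their measured values: a mean concentration in trained muscle at 0 h below that of sedentary muscle with a false discovery rate (FDR) under 0.05, and absence from the tables of untrained 0 h, untrained 6 h, trained 6 h and trained 72 h muscle. The third condition was a distance of more than 10 kb from every protein-coding transcription start site of GENCODE M39 on GRCm39. The regions make up 38.7% of the 11753 regions listed as lost in trained 0 h muscle alone, and 4780 of the others lay within 1 kb of a start site and 2419 between 1 and 10 kb.

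The mice were wild-type males of the C57/Bl6 strain, adult when killed. In all, 21 samples formed 7 groups of 3, and the comparison behind these regions used the sedentary group, which did no exercise, and the trained 0 h group, which had 12 weeks of voluntary wheel running and was taken straight after a single exhaustive treadmill bout. Untrained mice had the bout without the wheel, and both kinds were also taken at 6 and 72 h. Trained mice at rest were not among the groups, so in trained samples the training and the bout cannot be told apart. ATAC-seq, in which a transposase cuts and tags open DNA, was carried out on nuclei sorted for PCM1, which marks the surface of muscle fibre nuclei. The labels do not say that samples of a group were separate animals.

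Distal accessible regions include enhancers, which loop to promoters and carry much of the tissue-specific control of transcription, and insulators. In muscle fibres, enhancers are commonly bound by the E-box factors of the MyoD family, by MEF2 and, after stress, by AP-1. CTCF is a zinc finger protein that holds cohesin at loop anchors and domain borders, and its binding sites are largely shared between tissues. Loss of accessibility in a bulk sample of nuclei means a lower mean count, and a site open in fewer nuclei cannot be told apart from a site less open in each.

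The tables hold a group mean per region, the DiffBind concentration (log2 of the mean normalised read count), and no values per sample. Spread between samples, depth per sample and any test of these values are therefore lacking, and everything below is a description of regions that the authors' test had called. At 0 h in trained muscle 46.3% of all tested regions were called as lost and 53.3% were called in either direction. The share called in either direction was 33.1% in untrained 0 h, 13.1% in untrained 6 h, 18.4% in trained 6 h and 4.10% in trained 72 h muscle. Absence from those tables means only that the threshold was missed, and the concentrations of these regions in the other groups are not in the tables, so a difference between trained and untrained muscle was not tested. Listed promoters of 7 of 10 muscle fibre markers had a sedentary level of 1300 to 2299 normalised counts per kb. Among 54 markers of endothelial, fibroblast, immune, satellite and glial cells, 13 had a listed promoter, at 266 to 1335 normalised counts per kb.

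Sequences of 4 narrow regions are shown first because a match to the CTCF consensus is the feature on which much of the description below turns. Each is the whole region on the plus strand of GRCm39, and capitals mark the 12-base match to the CTCF consensus. They are the matched regions of at most 240 bp with the largest falls, with 1 region per gene.
Intron of Rbfox1, a splicing regulator, chr16:6609595-6609797: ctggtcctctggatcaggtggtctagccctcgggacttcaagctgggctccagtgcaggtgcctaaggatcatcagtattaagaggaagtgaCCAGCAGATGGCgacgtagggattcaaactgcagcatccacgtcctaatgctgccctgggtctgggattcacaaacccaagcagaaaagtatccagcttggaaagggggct
Downstream of the start of Hsbp1, chr8:120085682-120085884: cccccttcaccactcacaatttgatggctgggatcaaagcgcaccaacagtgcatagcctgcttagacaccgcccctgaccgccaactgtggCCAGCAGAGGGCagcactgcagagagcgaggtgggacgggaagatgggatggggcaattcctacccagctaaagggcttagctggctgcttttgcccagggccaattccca
Upstream of Zfp507, chr7:35579482-35579658: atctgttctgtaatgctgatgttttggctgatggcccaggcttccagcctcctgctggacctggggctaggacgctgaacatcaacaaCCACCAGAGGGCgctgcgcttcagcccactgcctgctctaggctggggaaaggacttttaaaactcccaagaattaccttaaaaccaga
Downstream of the start of Commd9, chr2:101736214-101736432: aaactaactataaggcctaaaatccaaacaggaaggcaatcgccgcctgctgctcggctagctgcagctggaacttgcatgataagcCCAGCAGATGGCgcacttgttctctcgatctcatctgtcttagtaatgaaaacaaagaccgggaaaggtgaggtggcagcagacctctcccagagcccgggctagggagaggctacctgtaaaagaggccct
The concentration fell from 8.02 in sedentary to 6.57 in trained 0 h muscle at Rbfox1, from 7.42 to 6.00 at Hsbp1, from 8.11 to 6.71 at Zfp507 and from 7.69 to 6.45 at Commd9. In all 4 the match lies near the middle of the region, on the plus strand.

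The consensus was found in 728 of the 4554 distal regions lost in trained 0 h muscle alone (15.99%, 95% Wilson interval 14.95 to 17.1%). Of the 4907 distal regions lost at 0 h in both training states and absent later, 324 held it (6.60%, 5.94 to 7.33%). Of all 24080 listed distal regions, a set that includes the 4554, 1403 held it (5.83%). Distal regions that opened in trained 0 h muscle held it in 0.330% (11 of 3335), and those listed as lost in untrained 0 h muscle but not in trained 0 h muscle in 1.38% (27 of 1956). Among the 29 combinations of tables and directions that at least 100 listed distal regions shared, the one with trained 0 h loss alone had the highest share, and the next was 8.74% in the 103 regions lost in trained muscle at 0 and 72 h. Per length, the trained 0 h loss alone regions held 257 matches per Mb, the regions lost in both states 102 and the genome 4.96. Regions lost in trained 0 h muscle alone between 1 and 10 kb from a start site held the consensus in 14.5% and those within 1 kb in 3.37%. The intervals cover counting error over regions only, since regions of the same samples are not replicates. This consensus was searched after the shares of the literal motifs had been seen.

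The matches lay near the middle of the regions. The nearest match was a median of 43.25 bp from the centre, and in 581 of the 728 regions (79.8%) it lay within 100 bp. A narrow region leaves a match little room away from the centre, and 172 of the 728 were at most 250 bp wide. The share that the widths alone would give was not computed. Position was much the same in the regions lost in both states, at 48.25 bp and 76.5%. Both strands were used about equally, with 366 of 749 matches on the plus strand. The 50 bases around the match occurred once in the genome in 715 of the regions (98.2%) and at most 2 times in the rest. Regions with the consensus had a median width of 432.5 bp against 509 bp without it, lay outside genes in 52.9% against 43.6%, and had a median difference of -0.74 against -0.79 on the log2 scale.

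The share was also compared within classes of width, size of the fall and base composition. In regions up to 250 bp wide it was 31.4% (172 of 548), against 22.8% in equally narrow regions lost in both states. In the next classes, with upper limits of 500, 1000 and 2000 bp, it was 14.3% against 6.60%, 14.6% against 4.98%, and 10.8% against 3.63%. Above 2000 bp the values were 10.8% and 9.30%, from 120 and 86 regions with wide intervals (6.44 to 17.7% and 4.79 to 17.3%). By size of the fall (under 0.6, to 0.8, to 1, and 1 or more), the share was 19.3, 18.2, 15.6 and 8.52%. In the regions lost in both states it was 7.14, 7.61, 8.93 and 4.41%, lowest at the largest falls but without a decline over the classes below them. With GC content between 45 and 60% it was 15.2 to 17.51% against 6.71 to 7.45%. At a GC content of 60% or more the order turned, with 8.42% of 190 regions against 9.84% of 61.

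**Figure D1:**
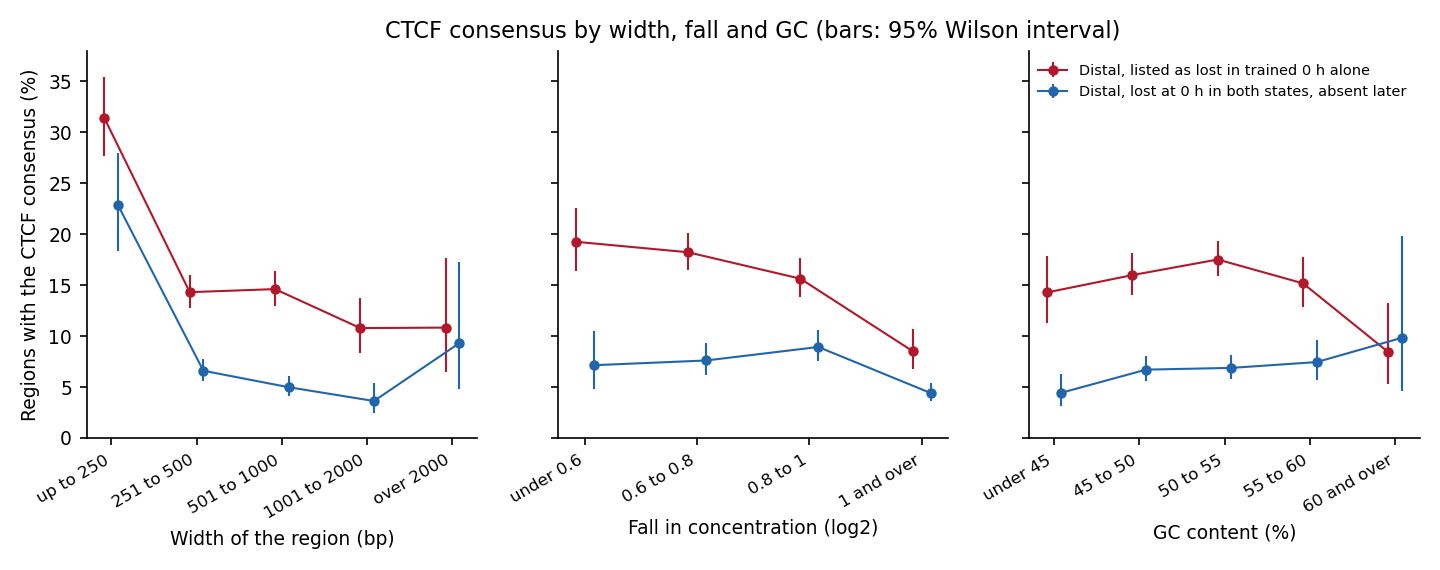
Share of regions with the CTCF consensus (percent, with 95% Wilson intervals) by width in bp, fall in concentration on the log2 scale and GC content in percent, for distal regions lost in trained 0 h muscle alone (red) and distal regions lost at 0 h in both states and absent later (blue). The red points lie above the blue ones in each class except GC content of 60% and over, where they stand at 8.42 and 9.84%, and both are highest, 31.4 and 22.8%, in regions up to 250 bp wide.

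Literal motifs, 14 in all, were searched on both strands in the central 300 bp. In the regions lost in trained 0 h muscle alone, 5 had a higher share than in both other sets. They were the CTCF core, the SP and KLF box and, by smaller margins in percentage points, the motifs of ETS factors, NRF1 and the glucocorticoid receptor. For ETS, NRF1 and the glucocorticoid receptor the 95% Wilson intervals overlapped those of the regions lost in both states. Unlike the consensus, the literal motifs were not compared within classes of GC content. The search covered the 3685 regions of at least 300 bp, and the comparison set and all listed distal regions were cut to the same length. The CTCF core AGGGGGC, which overlaps part of the consensus, was found in 11.1% against 6.32% of the regions lost in both states and 5.27% of all listed distal regions. GGGCGG, the box of SP and KLF factors, was found in 13.2% against 8.52 and 7.54%. The CRE TGACGTCA, bound by CREB, was rare, with 18 regions (0.488%) against 1 (0.0236%) and 162 (0.776%). The MyoD-type E-box, MEF2 and AP-1 motifs were less frequent than in both other sets. For AP-1 the 95% Wilson intervals overlapped those of the regions lost in both states, and for the E-box those of all listed distal regions. CAGCTG, an E-box preferred by MyoD, was found in 28.1% against 31.1 and 29.5%, and MEF2 CTAAAAATA in 1.11% against 2.83 and 2.50%. AP-1 TGANTCA stood at 6.57% against 7.36 and 16.2%, and in distal regions that opened at 0 h in trained muscle it was at 48.6%. TEAD GGAATG (17.99, 18.4 and 18.5%) and NF-Y CCAAT (30.8, 30.6 and 31.6%) had much the same share in the 3 sets. ETS CCGGAAG was found in 2.74% against 2.19 and 1.78%, NRF1 GCGCATGCG in 0.271% (10 regions) against 0.0708 and 0.129%, and ACANNNTGT of the glucocorticoid receptor in 11.3% against 10.3 and 11.05%. The remaining 3 motifs were CACGTG of clock factors and MYC (4.69% against 3.59 and 5.05%), GTAAACA of FOXO (3.36% against 3.94 and 4.77%) and TCAAGGTCA of ERR (0.543% against 0.944 and 0.829%).

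**Figure D2:**
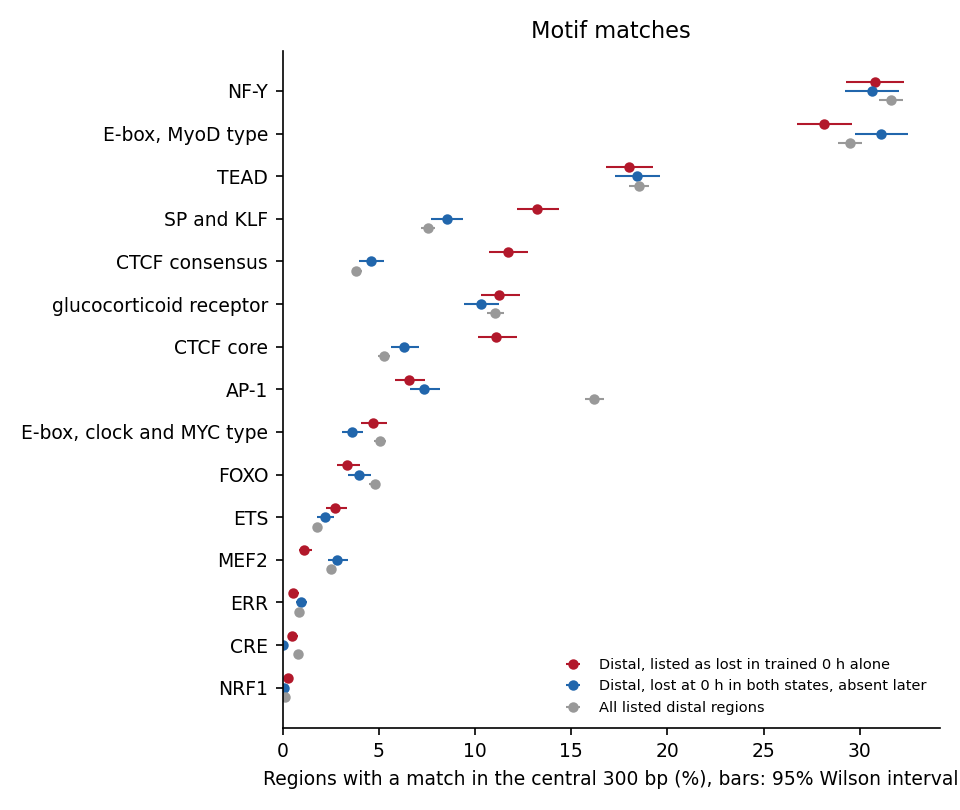
Percent of regions with a match to each motif in the central 300 bp, with 95% Wilson intervals, for distal regions lost in trained 0 h muscle alone (red), distal regions lost at 0 h in both states (blue) and all listed distal regions (grey). The CTCF consensus (11.7 against 4.58%), the CTCF core and the SP and KLF box lie furthest to the right of the blue points, while AP-1 lies at 6.57 and 7.36% in both kinds of loss and 16.2% in all listed distal regions.

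The falls themselves were moderate and close together. The median concentration was 8.75 in sedentary and 7.996 in trained 0 h muscle, and the median of the differences was -0.79 (5th to 95th percentile -1.20 to -0.53), a mean count 42.0% lower. In 751 regions (16.49%) the fall was 1 or more, that is at least 2-fold. Regions lost in both states had a median difference of -0.94, with 42.0% at a fall of 1 or more, and regions within 1 kb of a start site lost in trained 0 h muscle alone had a median of -0.89. At an FDR under 0.01 were 40.2% of the distal regions lost in trained 0 h muscle alone and 75.8% of those lost in both states. These values chose the regions, and a region that falls little is more easily missed in another table. The smallest fall was -0.36, near Potefam3b, and among distal regions listed as gained in trained 0 h muscle alone, just across the rule's limit, the smallest rise was 0.44, near Dock4.

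**Figure D3:**
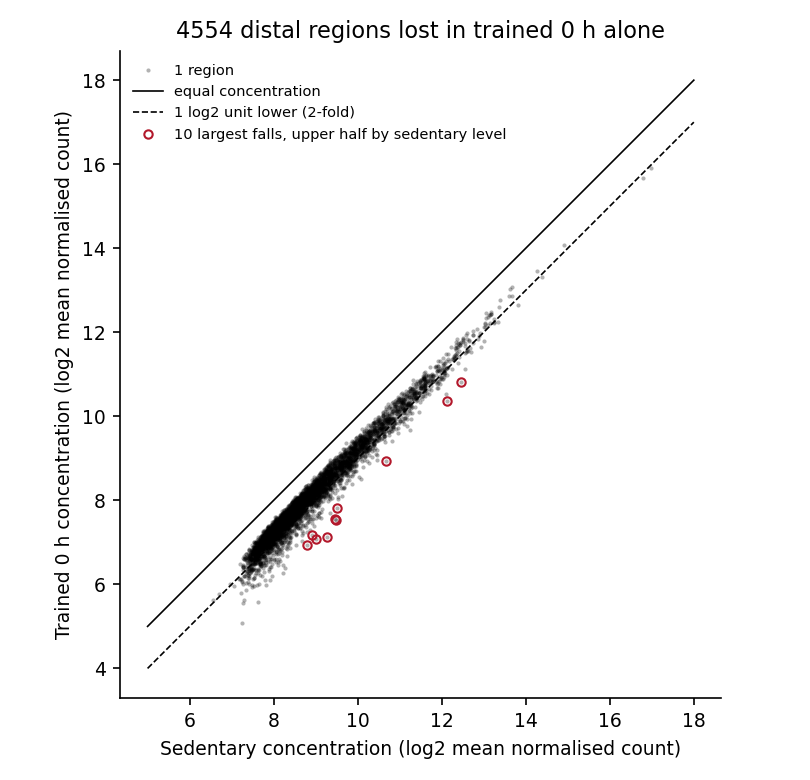
Concentration in trained 0 h muscle against that in sedentary muscle, both as log2 mean normalised counts, for the 4554 distal regions lost in trained 0 h muscle alone (1 point each). All points lie below the line of equal concentration, most between it and the dashed line 1 log2 unit lower, and the 10 named regions with the largest falls among those at or above the median sedentary concentration (open circles) have differences of -1.66 to -2.14.

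**Figure D4:**
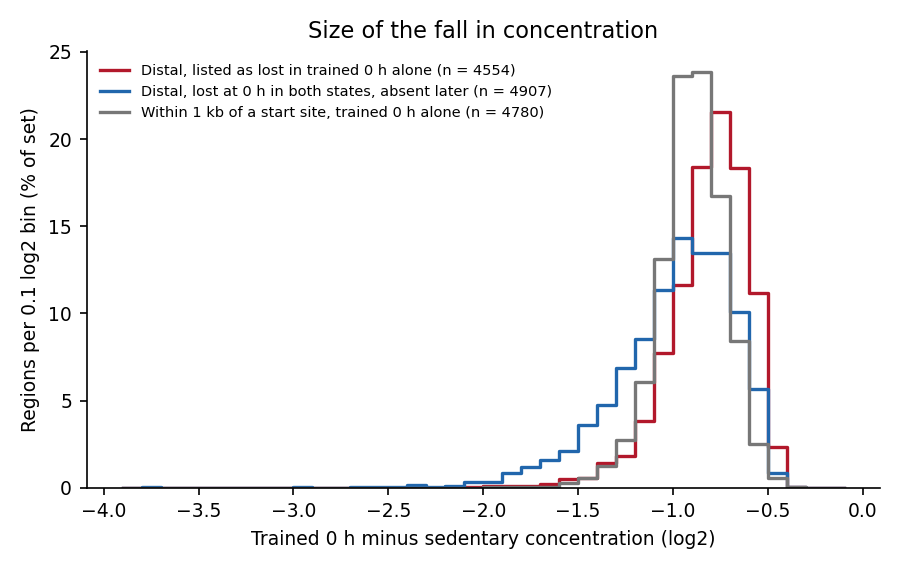
Percent of regions per 0.1 bin of the difference in concentration (trained 0 h minus sedentary, log2) in distal regions lost in trained 0 h muscle alone (red), distal regions lost at 0 h in both states and absent later (blue) and regions within 1 kb of a start site lost in trained 0 h muscle alone (grey). The medians are -0.79, -0.94 and -0.89, and the blue curve reaches furthest to the left.

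Most of the regions lay in introns or between genes, and a small fraction had the composition of CpG islands. By the centre of the region, 2153 (47.3%) lay in introns of protein-coding genes, 348 (7.64%) in exons and 2053 (45.1%) outside such genes, against 52.3, 5.56 and 42.1% of the regions lost in both states. The median distance from a start site was 29.8 kb against 35.7 kb, the median width 498.5 bp against 525 bp and the median GC content 51.6% against 50.4%. Median differences were -0.86 in exons, -0.78 in introns and -0.78 outside genes. CpG-rich regions, with a GC content over 50% and an observed over expected CpG ratio over 0.6, numbered 173 (3.799%, 3.28 to 4.39%) against 32 of the regions lost in both states (0.652%, 0.462 to 0.919%). At an FDR under 0.01 the shares were 1.58 and 0.564%, and with distance taken from the starts of every gene's transcripts 1.40 and 0.313%. The median difference of the 173 regions was -0.88, and 123 of them (71.1%) lay within 1 kb of the start of an annotated transcript that was not counted as protein-coding. Over all regions this held for 903 (19.8%), so that being distal here refers to protein-coding starts alone. On the edge of the rule, the regions just over 10 kb from a start were those of Bfsp2 (10002 bp, difference -0.59), Nhlh1 (10007 bp, -0.77) and Ddhd1 (10011 bp, -0.94). Those just under it were Cyp2d10 (9994 bp, -0.90), Smim41 (9998 bp, -0.77) and Sall2 (10000 bp, -0.66).

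Among regions with a sedentary concentration at or above the median, the largest fall was in an exon of Ky, whose product supports the Z-disc of muscle fibres. This region of 1431 bp, chr9:102418900-102420330, went from 9.27 in sedentary to 7.14 in trained 0 h muscle, a count 4.396-fold lower. Concentration is not corrected for width, and the sedentary level of the Ky region was low for its width. It was 433 normalised counts per kb, against a median of 945 over the distal regions lost in trained 0 h muscle alone. The next fall, -1.96, lay in an intron of Prkcb, a protein kinase C, 178 kb upstream of Cacng3, a subunit of calcium channels and AMPA receptors. Zfp608 and Wdr25 each held an intronic region that fell by 1.92. A region 49.2 kb upstream of Cd93, a receptor known from endothelial cells, fell by 1.86. Regulators of transcription were among those that followed. Ncoa1, a coactivator of steroid receptors, went from 12.13 to 10.37 in an intron, and regions in introns of Mta1, a subunit of the NuRD deacetylase complex, and of Cdyl, a chromodomain corepressor, had differences of -1.75 and -1.70. A site 13.2 kb upstream of Kremen1, a receptor that tempers Wnt signalling, went from 10.68 to 8.93. The list closes with a highly accessible site in an intron of Dpysl5, nearest to the start of Mapre3 of the microtubule tip, with 12.47 and 10.81. None of these 10 regions held the CTCF consensus.

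Windows of 120 bp from 3 of these regions are shown for their E-box CAGCTG, in capitals, on the plus strand of GRCm39.
Ky, chr9:102419513-102419632: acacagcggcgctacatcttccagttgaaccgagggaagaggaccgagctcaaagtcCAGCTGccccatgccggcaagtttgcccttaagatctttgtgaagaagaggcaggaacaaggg
Intron of Prkcb, chr7:122091397-122091516: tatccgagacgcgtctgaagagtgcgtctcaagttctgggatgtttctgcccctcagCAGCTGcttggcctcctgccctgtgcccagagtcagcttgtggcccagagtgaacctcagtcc
Upstream of Kremen1, chr11:5225363-5225482: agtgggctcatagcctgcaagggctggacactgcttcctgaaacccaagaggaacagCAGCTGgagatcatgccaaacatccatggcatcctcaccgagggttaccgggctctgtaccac
Each window holds 1 match. As the shares above show, the E-box was no more frequent in the regions lost in trained 0 h muscle alone than in all listed distal regions, which include them.

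Gene by gene, the 4554 regions had 3008 nearest protein-coding genes, of which 2108 (70.1%) had 1 region and 62 had 5 or more. Among those with the most were Gse1 (17), Sh3pxd2a (15) and Zmiz1 (13), and Man2a1, Rab11fip4 and Rbm19 with 9 each. These are long genes, from 108 to 353 kb, and the count was not set against length. Gse1 encodes a partner of histone deacetylase complexes. Its 17 regions had differences of -0.54 to -1.38 and spanned 282 kb, with the largest fall 107 kb from the nearest start, from 9.03 to 7.65. The 15 regions of Sh3pxd2a, a scaffold of podosomes, had differences of -0.64 to -1.12. Zmiz1, a transcriptional coactivator, had differences of -0.64 to -1.503, the largest fall 306 kb upstream. At Rab11fip4, which acts in endosome recycling, 8 of the 9 regions lay outside the gene body. Man2a1, a mannosidase of the Golgi, and Rbm19, which acts in ribosome assembly, had largest falls of -1.13 and -1.502.

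At a gene of calcium handling, accessibility was lost across exons and introns. Ryr1 encodes the calcium release channel of the sarcoplasmic reticulum, and 9 of the regions overlapped this gene, 7 of them nearest to the start of its neighbour Map4k1. The differences at Ryr1 ran from -0.54 to -1.89 with a median of -1.49, beside -0.79 over all 4554 regions, and in 8 of the 9 the fall was at least that of -1.32. Levels were low for the width. Most of the 9 regions had a sedentary level per kb under the 5th percentile of the 4554 regions (510 normalised counts). The region of the window below had 467. Altogether 27 regions overlapping Ryr1 were lost in trained 0 h muscle, 14 of them also in untrained 0 h muscle, and 0 were gained. The window of 120 bp below is from the exonic Ryr1 region with the larger fall of the 2 nearest to its own start, 53.0 kb downstream of it, from 7.92 to 6.12. It is shown as an example of a CpG-rich exon, with each CG in capitals, on the plus strand of GRCm39. The region it comes from covers the start of an annotated transcript that was not counted as protein-coding.
Ryr1, chr7:28771130-28771249: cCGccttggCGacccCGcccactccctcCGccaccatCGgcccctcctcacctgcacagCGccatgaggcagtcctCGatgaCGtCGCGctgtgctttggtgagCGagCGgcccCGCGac
The window holds 14 CG pairs, and the gene is read from the opposite strand.

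**Figure D5:**
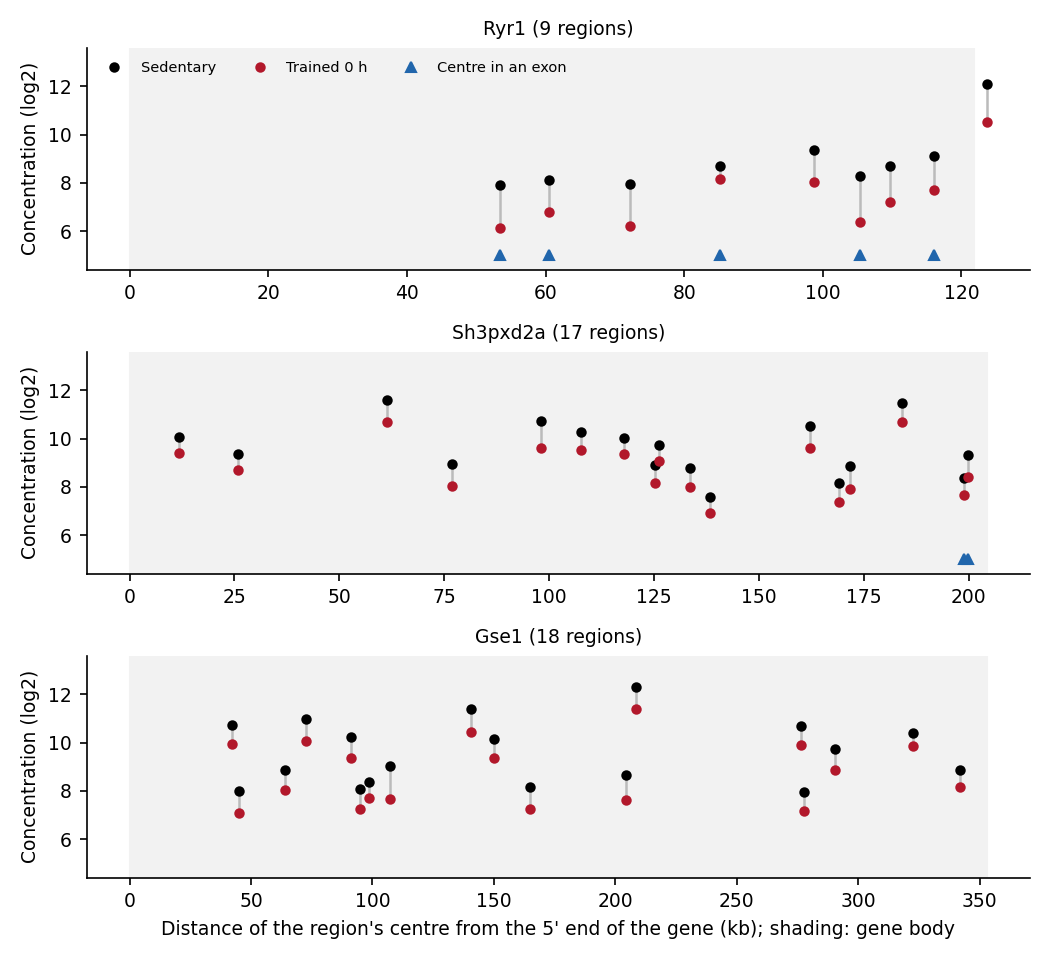
Concentration (log2 mean normalised count) in sedentary (black) and trained 0 h muscle (red) of the regions lost in trained 0 h muscle alone that overlap Ryr1, Sh3pxd2a and Gse1, against the distance of their centres from the 5′ end of the gene in kb. Grey lines join the 2 values of a region, shading marks the gene body and triangles mark centres in an exon. The falls at Ryr1 (median difference -1.49) are longer than those at Sh3pxd2a (-0.79) and Gse1 (-0.83), and 1 Ryr1 region runs past the 3′ end of the gene.

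Across the gene lists chosen for this tissue, the sarcomere and calcium handling list held 28 regions at 10 of its 34 genes, with a median difference of -0.87. They were 12.7% of the 221 regions of this list lost in trained 0 h muscle, near the 15.4% over all 29616 regions lost there. That 15.4% also counts regions within 10 kb of a start, which the rule leaves out. The 4554 are a larger share of the 15622 distal regions lost there. Distal regions of each list were not counted. Neb, the nebulin ruler of thin filaments, held a difference of -1.14 and Ttn, titin, of -0.88, both in introns. Muscle transcription factors had 27 regions at 13 of 22 genes with a median of -0.82. The 27 regions were 12.4% of the 217 of this list lost in trained 0 h muscle. The genes included Tbx15, a factor of fast fibres, at -1.39, Maf at -1.18, and Myf6, the myogenic factor MRF4, at -1.10. Beside the median of -0.79 over all 4554 regions, medians of the lists lay between -0.92 and -0.65. Here and for the lists that follow, the value beside a gene is its largest fall. Each region was given to the nearest start, however far, so the gene name can say little. The largest falls lay 951 kb from the start at Acvr2a, 381 kb at Robo2, 275 kb at Maf and Tbc1d1 and 246 kb at Ptprc.

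Immediate early genes, which respond to contraction within minutes, had 31 such regions at 13 of 28 genes. These were 33.3% of the 93 regions of the list lost in trained 0 h muscle, beside 15.4% over all lost regions. The 15.4% also counts regions near starts, and how many of the 93 were distal was not counted. Another 55 regions of the list were gained there. The largest fall among all 4554 regions was one of the 31, chr15:61737991-61738306, 119 kb upstream of Myc, from 7.25 to 5.09. Its level was low, under the 5th percentile of the 4554 regions in sedentary (7.59) and in trained 0 h muscle (6.67). The other 5 regions nearest to Myc had differences of -0.55 to -0.93, and around the same gene 11 regions were gained in trained 0 h muscle. Egr1 (-1.05) and Fosl2 (-0.998) held further falls, while Fos had 5 regions with differences of -0.52 to -0.93. Glucose metabolism and insulin signalling had 18 regions at 9 of 31 genes, with Pfkfb3, an activator of glycolysis, at -1.29, the insulin receptor substrate Irs2 at -1.06 and the Rab regulator Tbc1d1 at -0.97. Oxidative metabolism regulators had 18 at 9 of 21, led by the fatty acid receptor Ppara at -1.31, its partner Rxra at -1.001 and the corepressor Nrip1 at -0.998. Lipid metabolism had 5 regions at 4 of 29 genes, with Cyp4f39 (-1.05), the phosphatidate phosphatase Lpin1 (-1.02) and Osbpl1a (-0.86). Of the 147 regions of the glucose list lost in trained 0 h muscle, such regions were 12.2%. For oxidative metabolism regulators it was 20.5% of 88 and for lipid metabolism 5.88% of 85, beside 15.4% over all lost regions.

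Among signalling lists, growth and atrophy signalling had 21 regions at 12 of 25 genes with a median of -0.72, among them Smad7, an inhibitor of TGF-beta signals (-1.01), the activin receptor Acvr2a (-0.91) and Tgfb2 (-0.90). Phosphodiesterases and cyclic nucleotide signalling had 15 at 9 of 24 with a median of -0.77, including the adenylyl cyclase Adcy9 (-1.28), the salt-inducible kinase Sik1 (-1.12) and Creb1 (-0.98). Neuromuscular junction and ion channel genes had 10 at 4 of 26 with a median of -0.72, including the potassium channel Kcnma1 (-1.06) and the ankyrins Ank3 (-0.97) and Ank2 (-0.50). Cell adhesion and axon guidance had 9 at 6 of 34 with a median of -0.89, including Cdh4 (-1.53), Sema3a (-1.18) and Robo2 (-0.94). The circadian clock had 6 at 4 of 19 annotated genes with a median of -0.67, including Rora (-1.15), Hlf (-0.83) and Nr1d2 (-0.66). Such regions were 18.9% of the 111 regions of the growth list lost in trained 0 h muscle. For phosphodiesterases the share was 12.9% of 116 and for junction and channel genes 8.85% of 113. It was 13.64% of 66 for adhesion and 7.06% of 85 for the clock. Over all lost regions it was 15.4%, which includes regions near starts. Distal regions of each list were not counted.

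Markers of other cells in muscle also held such regions. Endothelial and smooth muscle markers had 8 regions at 5 of 15 genes, with a median of -0.77 and Notch3 at -1.11, Egfl7 at -0.88 and Cspg4 at -0.73. Fibro-adipogenic and fibroblast markers had 8 at 5 of 11, with a median of -0.78 and Cd34 at -1.01, Col1a2 at -0.90 and Thy1 at -0.82. Satellite cell markers had 8 at 4 of 7, with a median of -0.88 and Chrdl2 at -1.11, Pax7 at -1.06 and Cd82 at -1.002. Immune markers had 4 at 2 of 12, at Ptprc (-0.98) and Adgre1 (-0.78), and glial and tenocyte markers had 4, all at Mbp, which also has forms outside glia, with the largest at -1.19. The 3 regions of Ptprc lay 246 to 518 kb from its start. Of the 10 muscle fibre markers, 1 (Ttn) held a region. As shares of each list's regions lost in trained 0 h muscle, these were 29.6% of 27 for endothelial, 24.2% of 33 for fibroblast, 42.1% of 19 for satellite cell, 44.4% of 9 for immune and 36.4% of 11 for glial markers, and 1.64% of 61 for muscle fibre markers, beside 15.4% over all lost regions. How many of each list's lost regions were distal was not counted, and the 15.4% includes regions near starts. A part of other cells in these values was not tested.

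Extremes of position, width and level were looked at separately. Among the regions farthest from a protein-coding start were those of Flrt2 (1763 kb, difference -0.53) and Ndufa4 (1217 kb, -0.79), so that the gene name says little there. The widest was an 11281 bp region in an intron of Xirp2, an actin-binding protein of muscle, which went from 12.35 to 11.77. Spag9 and Ttc7 followed with 8924 and 6396 bp and differences of -0.82 and -0.90. The highest sedentary levels per kb, 48707 and 42631 normalised counts near Tcp10c and Zfp825, came from repetitive sequence, with 19.6 and 21.1% of their 20-base words distinct against a median of 100%. The next, in an intron of Myh10, had 67.3% distinct words. Reads could be given to up to 10 places in mapping, so counts at these 3 sites are uncertain. In all, 46 regions (1.01%) shared a stretch of 100 bases with another, at a median of 4647 normalised counts per kb against 941 in the rest, and with a median difference of -0.82 against -0.79.

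Many of these regions lay beside others that were listed elsewhere. A region listed for untrained 0 h muscle lay within 10 kb of 1612 (35.4%), against 49.3% for the regions lost in both states and 43.4% for all listed distal regions. For a lost neighbour in untrained 0 h muscle the shares were 30.3, 47.0 and 36.6%, and for a gained one 6.83, 4.08 and 9.13%. Another region lost in trained 0 h muscle alone, at any distance from a start, lay within 10 kb of 24.5%, against 17.4 and 16.8%. The tables share the sedentary samples, so such neighbours are not independent of each other.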

How the data were processed

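ATAC-seq libraries of PCM1+ nuclei from 21 samples were trimmed by the authors with Trimmomatic 0.39, mapped to GRCm39 with Bowtie2 2.4.4 and SAMtools 1.15 with up to 10 placements per read, and peaks were called with Genrich 0.6.1. The authors compared groups in DiffBind 3.4.11 with DESeq2, and the deposited tables hold log2 concentrations as group means. The deposited p-value and FDR columns, results of the authors' own test with their fold changes, served here only to recover the 63953 regions tested and for a stricter FDR, and no value of them is printed. Per-sample depth is unknown.

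Differences were computed here as concentration in trained 0 h minus sedentary muscle. Regions were identified by identical coordinates across tables. Distances ran from the nearest edge of a region to start sites of protein-coding transcripts (GENCODE M39), and genes were named by the nearest one, since gene positions in the tables lie on another build than the regions. A level per kb is the count (2 to the power of the concentration) divided by the width. Motifs were matched literally on both strands. Sequences were read from the GRCm39 primary assembly. Python 3.11.15, pandas 2.3.3, NumPy 2.4.6 and SciPy 1.17.1 were used. The motif search and the interval of a median, used for the alternatives, were tested on simulated data, and the Wilson intervals were not.

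The regions, gene lists and motifs were chosen with earlier results of these data known. Named regions followed a rule, with predicted genes left out and 1 region per gene: the 10 largest falls at or above the median sedentary concentration, the 8 genes with the most regions with up to 3 falls each, up to 3 per list, the 3 farthest, widest and highest per kb, and the 3 on each side of the 10 kb limit. Map4k1, Potefam3b, Dock4, Fos, the regions whose sequences show the CTCF consensus, and the Ryr1 gene body were picked with their values known. Some genes that the rule takes are not reported here. Alternatives covered distance, start sites, absence, FDR, fall, autosomes and motif windows.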

Additional observations from a re-analysis of the deposited data

How the results depend on the processing

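No paired analysis was possible because each table gives 1 mean per group and region, and for the same reason no replicate could be left out. Of 114 alternative values, 61 stayed within the interval of the value given (or 1.5 times a count) and 53 moved. A change of direction was not scored. Absence by any overlap kept the same 4554 regions, so its values could not differ. The number of regions, 4554, became 1311 beyond 50 kb, 1781 with the starts of every gene's transcripts and 1831 at an FDR under 0.01, with 929, 1338 and 1463 nearest genes. The median difference, -0.785, became -0.773, -0.772 and -0.905 under these, and -0.777 with every transcript of protein-coding genes. The share in introns, 47.3%, was 40.8, 60.1 and 49.2% under these, 45.8% beyond 20 kb, 42.7% with every transcript of protein-coding genes and 55.1% by any overlap with a gene body. The median GC content, 51.6%, was 51.1, 50.8 and 51.2%, 51.8% beyond 5 kb and 52.3% in the central 300 bp. The CpG-rich share, 3.799%, fell to 1.40% with the starts of every gene's transcripts and 1.58% at an FDR under 0.01. The share with the CTCF consensus, 15.99%, stayed between 14.04% beyond 50 kb and 16.6% at an FDR under 0.01, with 14.9% beyond 20 kb, and the share in regions lost in both states between 4.72 and 6.93%. In the central 300 bp it was 11.7%, and 15.99% in whole regions. The CTCF core, 11.1%, was found in 18.1% of whole regions and 8.90% of the central 200 bp. Neighbours listed for untrained 0 h muscle, 35.4% within 10 kb, were 21.5% within 5 kb and 76.3% within 50 kb. Of 88 named regions, 31 were kept beyond 50 kb, 40 with the starts of every gene's transcripts and 61 at an FDR under 0.01. The CTCF consensus, the CpG-rich share and leaving out regions with a shared 100-base stretch were added after the data were seen.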

Other observations

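Other changes at the genes nearest to these distal regions were counted, with no test, beside those at the 2860 genes nearest to distal regions lost in both states and the 7042 nearest to any listed distal region. Of the 3008 genes, 876 (29.1%) also had a region within 1 kb of a start listed as lost in trained 0 h muscle alone, against 31.3 and 26.7%, and 1169 (38.9%) one lost in trained 0 h muscle whatever the other tables list, against 42.5 and 35.7%. A region lost in untrained 0 h muscle was nearest to 2028 of the genes (67.4%), against 73.6% of the genes of any listed distal region, and by the rule to each gene of the regions lost in both states. One gained in untrained 0 h muscle was nearest to 811 (26.96%, against 25.6 and 23.9%) and one gained in trained 0 h muscle to 957 (31.8%, against 34.7 and 32.2%). Of 2501 regions inside a gene body, 1875 (74.97%) were nearest to a start of that same gene. By chromosome, the regions made up from 15.7% (chromosome 13) to 22.7% (chromosome 17) of the listed distal regions, beside 18.9% over all, leaving out the Y chromosome with 0 of 1. The X chromosome held 63 (18.3%).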
